A study of Mus musculus with 36 samples.

Results

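The genes described here encode 10 subunits of the neuronal voltage-gated calcium channels: Cacna1a, Cacna1b, Cacna1c, Cacna1d, Cacna1e, Cacna1g, Cacna1h, Cacna2d1, Cacna2d2 and Cacnb4. They were taken by symbol from the table of raw counts, in which each symbol had 1 row, so that 10 of 16614 genes were followed and all 10 passed the filter on low counts in every comparison. The study asked whether FMRP, the RNA-binding protein encoded by Fmr1, helps set the positions at which neuronal ribosomes stall, and the gene counts of the same libraries are described here. WT C57BL/6 mice and FMR1 KO mice were compared at postnatal day 5, with 10 flash-frozen whole brains pooled in each preparation. Ribosome-protected fragments (RPFs, the short stretches of mRNA shielded by a ribosome during nuclease digestion) were sequenced from the pellet of a sucrose gradient, where the compacted ribosome clusters called RNA granules sediment, and from fraction 5/6, which holds lighter ribosome clusters and is labelled polysome. RNA of the homogenate was sequenced beside them. Each of these was made in both genotypes, once with the standard nuclease digestion in 10 mM MgCl2 and once as a low nuclease preparation in 2.5 mM MgCl2, giving 12 groups of 3 libraries and 36 libraries in all. The knockout is not restricted to a cell type, the brain was not dissected, and all values are averages over many cell types.

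Voltage-gated calcium channels open when the membrane depolarizes and let calcium into the cell, where it triggers transmitter release, dendritic signalling and activity-dependent transcription. A channel is built around 1 large pore-forming subunit, from the Cacna1 genes, which sets the voltage range and the drug sensitivity. High-voltage-activated pores join a cytoplasmic beta subunit, such as that of Cacnb4, and an extracellular alpha2-delta subunit, from Cacna2d genes, and both raise the number of channels at the surface. The pore-forming mRNAs are long and their products are made at the endoplasmic reticulum.

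Genotype labels were first checked at Fmr1. In the standard preparation Fmr1 was at 60.6 to 72.0 CPM (counts scaled to a common library total, here always without the reads assigned to Cdk8) in WT RNA and 16.4 to 18.1 CPM in KO RNA, and at 64.6 to 67.8 CPM in the WT pellet against 4.79 to 4.93 CPM in the KO pellet. The differences were −1.90 (SE 0.10, adjusted p = 3.64e-05) and −3.72 (SE 0.18, adjusted p = 0.00598) on the log2 scale by the quasi-likelihood test of edgeR, adjusted over all genes by Benjamini and Hochberg's method, which is the test behind every adjusted p given here. In fraction 5/6 the WT libraries held 100.1, 68.6 and 3.17 CPM and the KO libraries 5.98, 6.82 and 10.7 CPM, so replicate 3 of the libraries labelled WT lay below all 3 KO libraries. That library is kept under its label, and the comparisons of WT fraction 5/6 are also given without it. Neuronal markers were present throughout, with 6 of 6 genes counted and a summed level of 6380 to 7500 CPM in RNA. Markers of oligodendrocytes and their precursors (5 of 5 counted) summed to 236 to 534 CPM in RNA and 57.2 to 107 CPM in RPFs, and erythroid markers (3 of 3) to 189 to 446 CPM in RNA and 3.43 to 13.7 CPM in RPFs. Their part in the comparisons with RNA was not tested, and fewer cells of a type cannot be told apart from less RNA per cell.

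Depth differed between the kinds of library. The 6 standard RNA libraries held 112249206 to 147216378 reads assigned to genes, and the 12 standard RPF libraries 6765065 to 40174168. In these RPF libraries 36.67 to 63.43% of reads were assigned to Cdk8, which left 4284209 to 21274803 reads, whereas Cdk8 took at most 0.03% of standard RNA. Counts of a member ran from 1626 to 13168 in standard RNA, from 46 to 4960 in the pellet and from 13 to 3986 in fraction 5/6. CPM were not rescaled between library types. Fold changes, given throughout on the log2 scale, were scaled by TMM, a normalization that takes most genes as equal between libraries, and the 2 scales differed most for RPFs against RNA: with library size alone the median over all genes moved from −0.10 to −1.25 on the log2 scale for the WT pellet and from −0.07 to −1.16 for the KO pellet. A member with equal CPM in pellet and RNA therefore had a positive fold change, and a fold change reads as a level relative to the typical gene.

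The span of a gene also shaped its count. Among gene pairs in which 1 gene lies inside another without sharing an exon base, the outer gene's count was at least the inner gene's in 100% of opposite-strand pairs in all 36 libraries and in 99.44 to 100% of same-strand pairs. Reads of a gene lying in an intron were thus included in the count of the surrounding gene, on either strand. The members are long genes: their median span was 250.16 kb, against 24.8 kb for all protein-coding genes, and their exons covered a median of 4.82% of the span, against 17.5%. The longest, Cacna1c (chr6:118587240-119196418, minus strand; GRCm38 with the GENCODE M21 annotation, as for every position given here), spans 609.18 kb, and the shortest, Cacna1h (chr17:25374285-25433783, minus strand), spans 59.5 kb.

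Cacna1d (chr14:30039939-30491455, minus strand), which encodes an L-type pore that opens at relatively negative voltages, overlaps Chdh at its 3′ end and Dcp1a at its 5′ end. Chdh (chr14:30009023-30040527, plus strand), the choline dehydrogenase of mitochondria, shares 589 exonic bases with it. Dcp1a (chr14:30479535-30527063, plus strand), a cofactor of mRNA decapping, shares 11921 bases, none of them in an exon of both genes. In the KO pellet Cacna1d had 2875, 3781 and 2735 reads, Dcp1a had 2456, 3773 and 2803, and Chdh had 506, 18 and 20. In the WT pellet Cacna1d had 1054, 203 and 633 reads, Chdh 978, 150 and 574, and Dcp1a 211, 133 and 96. The Cacna1d count thus moved with Dcp1a in the KO pellet and with Chdh in the WT pellet. Summed over both neighbours, the reads came to between 100.3 and 230% (median 106.2%) of the Cacna1d count in the 12 standard RPF libraries and to 78.2 to 160.5% in the 6 standard RNA libraries. RPFs of Cacna1d itself cannot be told apart from those of its neighbours, and every value for Cacna1d that follows is a value for this locus. Dcp1b overlaps 21166 bases of Cacna1c without sharing an exon base, and its count was 34.9 to 107.1% of the Cacna1c count in standard RPFs and 15.0 to 28.3% in standard RNA. Tpsg1 shares 158 bases with Cacna1h and reached at most 0.9% of its count in standard RPFs.

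**Figure D1:**
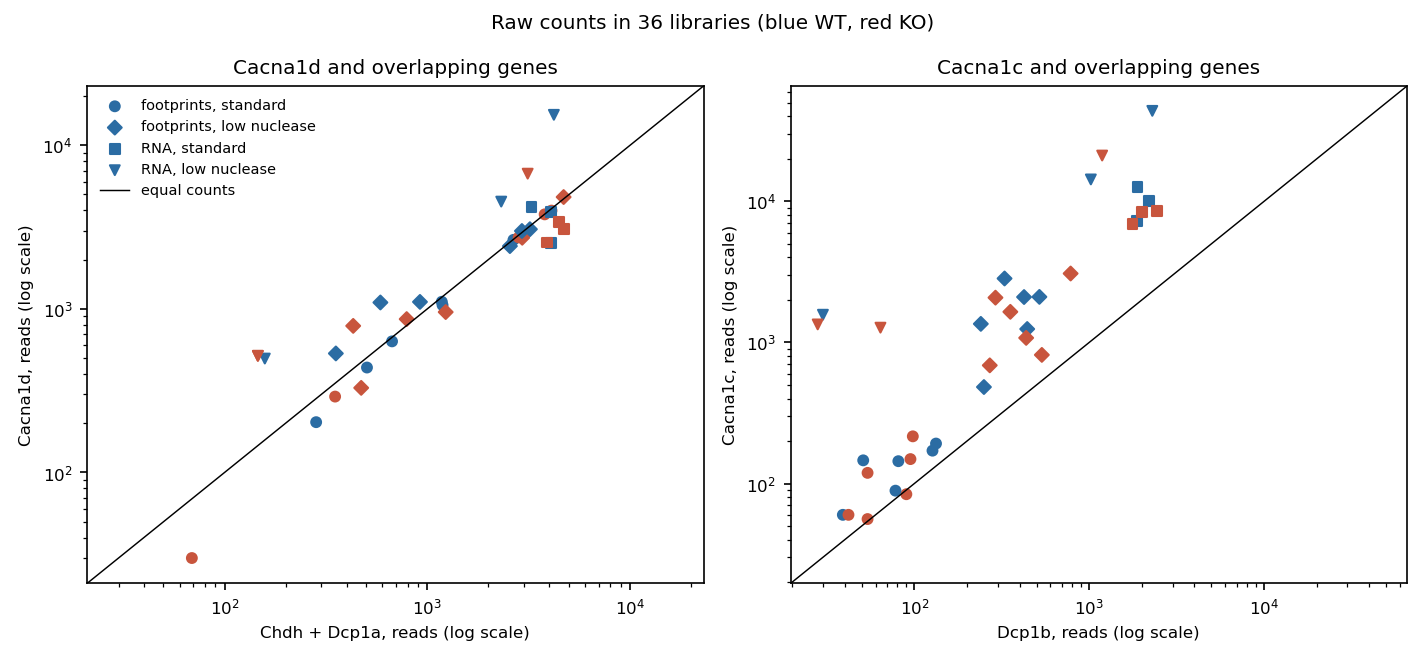
Reads of Cacna1d against the summed reads of Chdh and Dcp1a (left) and of Cacna1c against Dcp1b (right), both axes logarithmic, 1 point per library in all 36 libraries (blue WT, red KO, shapes for the kind of library; footprints are RPFs). The circles of the standard RPF libraries lie on or below the line of equal counts for Cacna1d, and the Dcp1b reads are 34.9 to 107.1% of the Cacna1c reads in the same libraries.

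Peak intervals, stretches of a transcript where the authors' caller found RPFs piled up, were deposited for each RPF library. In the 12 standard RPF libraries, with 11389 to 36435 intervals each, 0 lay on any of the 122 annotated transcripts of the 10 members. An interval was present on 3.45 to 51.0% of genes within the members' range of counts, depending on the library, and on 69.1 to 80.0% of genes with at least 1000 reads. Intervals lie on transcripts while the counts cover whole gene spans, so genes of equal count can differ in reads on the transcript. Members reached 1000 reads in 8 cases, 7 of Cacna1d and 1 of Cacna1e (4960 reads in KO pellet replicate 2), and neither Dcp1a nor Chdh carried an interval either. Of 16 other subunits of the channel family, 5 carried 18 intervals, 17 of them in coding sequence: Cacnb1, Cacnb3, Cacna2d3, Cacng2 and Cacng4. Some intervals of different libraries overlapped on Cacnb1 and Cacnb3. At 1 position of each gene, 2 libraries had intervals with middles within 6 nucleotides of each other, and the sequences of these positions are given. They are read 5′ to 3′ from the annotated transcript, and capitals mark the bases that both intervals share.
Cacnb1, chr11:98005266-98005292 (minus strand, exon 13, coding): acgAGAACCAATTGGAAGATGCCtgcg
Cacnb3, chr15:98639929-98640354 (plus strand, across the junction of exons 3 and 4, coding): ttaaAGAGAAGTACAGCAAtgact
The Cacnb1 interval, 20 shared bases, came from replicate 1 of the WT pellet, with a height of 8, and of WT fraction 5/6, with a height of 3. The Cacnb3 interval, 15 shared bases, came from WT pellet replicate 1 (height 6) and KO pellet replicate 2 (height 2), and a longer interval of KO pellet replicate 1 overlapped it. All 4 heights were below the median interval of their library, 15 or 16. Both genes encode beta subunits, the same class as Cacnb4.

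In WT RNA of the standard preparation, per kb of exon, Cacnb4 led at 9.73 ± 0.79 CPM (SD, n = 3 as for every group) and did not overlap the next gene. Cacna1b (5.66 ± 1.47), Cacna1a (5.19 ± 0.42), Cacna1c (3.84 ± 1.30), Cacna1g (3.30 ± 0.29), Cacna2d1 (2.98 ± 0.49) and Cacna1h (2.76 ± 0.14) each overlapped the gene before it in this order, Cacna1b aside. Cacna2d2 (2.29 ± 0.11), Cacna1d (2.27 ± 0.66) and Cacna1e (2.22 ± 0.48) closed it, below Cacna1h in every library of Cacna2d2, and were not separated from each other by their spread. Divided by the whole span, introns included, the order changed: Cacna1g (0.508 ± 0.044 CPM per kb) and Cacna1h (0.452 ± 0.023) led, Cacnb4 was at 0.351 ± 0.029, and Cacna1d was last at 0.0635 ± 0.0183. In the WT pellet, per kb of coding sequence, Cacnb4 was at 10.1 ± 1.8 CPM, while the T-type pores Cacna1h (0.991 ± 0.184) and Cacna1g (0.805 ± 0.213) were lowest, although only the gap between Cacna1e (3.35 ± 1.30) and Cacna1a (1.75 ± 0.63) left neighbours in the order without overlap. Summed over the 10 members, RNA held 484.4 ± 66.7 CPM in WT and 391.9 ± 7.0 in KO, the pellet 176.3 ± 44.7 in WT and 520.5 ± 267.7 in KO, and fraction 5/6 241.5 ± 115.1 in WT and 217.9 ± 137.2 in KO. The wide KO pellet sum rested on Cacna1d in all 3 libraries and on Cacna1e in replicate 2.

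**Figure D2:**
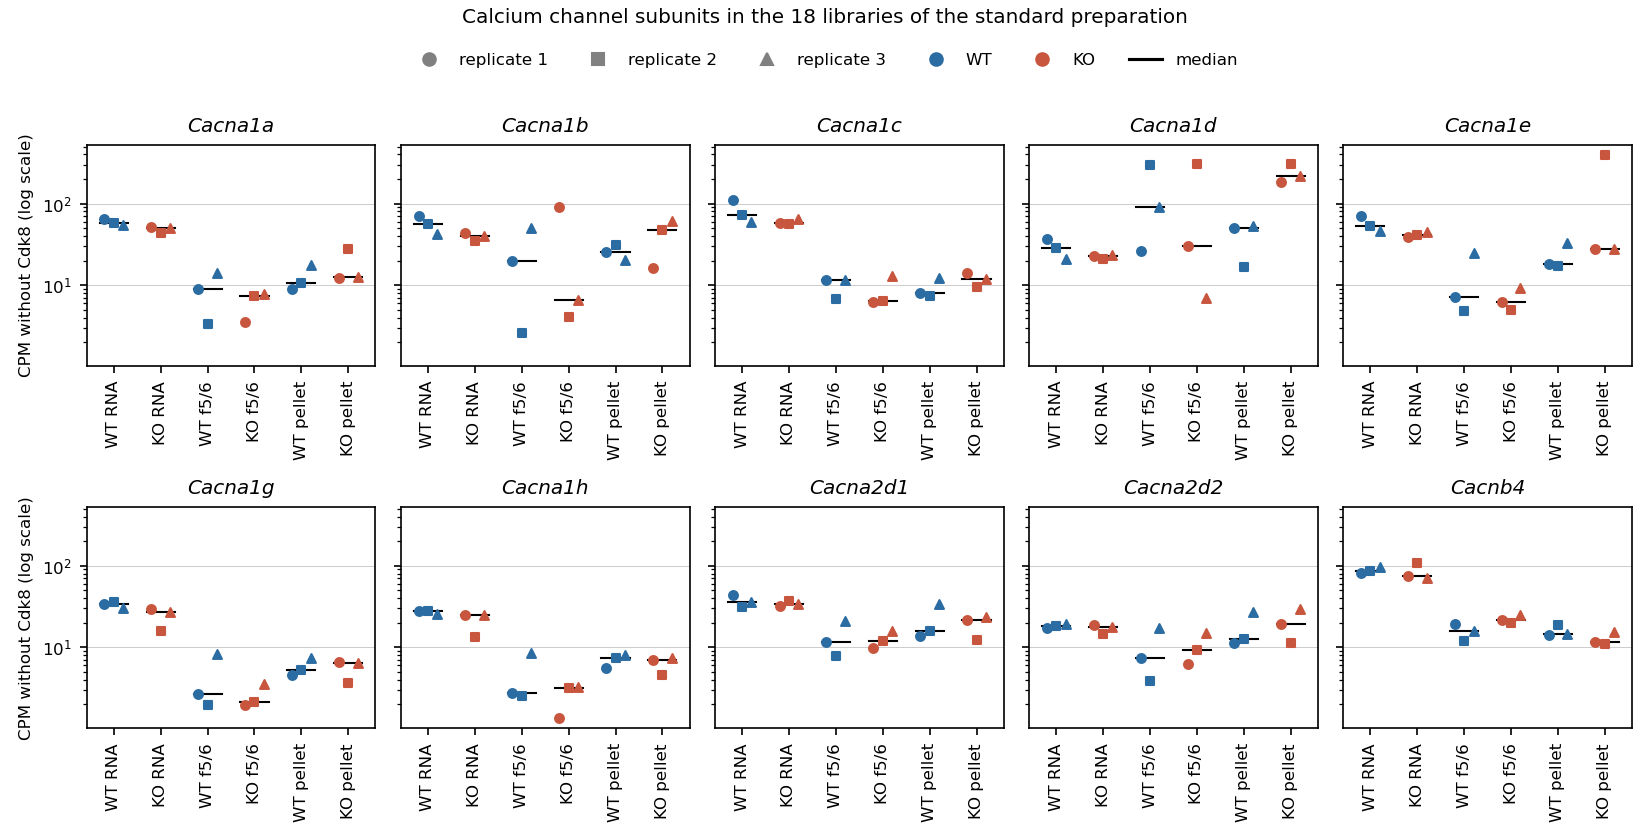
CPM of the 10 members, without Cdk8 and on a log axis, in the 18 libraries of the standard preparation (f5/6, fraction 5/6; shapes, replicates; bars, medians). For Cacna1a, Cacna1c, Cacna1g, Cacna1h and Cacnb4 every RNA library lies above every RPF library of the same genotype, while Cacna1d reaches 302 CPM in RPFs.

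Occupancy, the level in RPFs relative to RNA, was examined first in the pellet. Since counts covered whole gene spans, the RNA levels of these long genes can include reads in introns. The part of such reads in the occupancy values was not tested. Relative to the typical gene, the WT pellet held less of 5 of 10 members than the RNA did (Cacna1c, Cacna1g, Cacnb4, Cacna1a and Cacna1h) and more of 2 (Cacna1d and Cacna2d2). Over all genes tested 34.2% were lower and 31.1% higher. In KO 4 were lower (Cacnb4, Cacna1c, Cacna1g and Cacna1h) and 4 higher (Cacna1d, Cacna1e, Cacna2d2 and Cacna1b), against 35.2% and 31.8% of all genes. In the low nuclease preparation all 4 of the members higher in KO had negative values. With all 6 standard groups in 1 fit, 4 WT members passed in place of 7, and Cacna1a (adjusted p = 0.0572), Cacna1h (0.0963) and the Cacna1d locus (0.163) did not. The members' median was −0.46 in WT, beside −0.10 for all genes, and 0.00 in KO, beside −0.07. Of all genes called, 47.6% were higher in the WT pellet and 47.4% in the KO pellet, shares that were 11.5% and 11.4% with library size alone. With that scaling 0 members were higher and 8 lower in WT (all but the Cacna1d locus and Cacna2d2), and in KO 1 was higher (the Cacna1d locus) and 6 lower (Cacna1a, Cacna1c, Cacna1g, Cacna1h, Cacna2d1 and Cacnb4).

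Among the presynaptic pores, Cacna1a, the P/Q-type pore that drives release at most central synapses (chr8:84388440-84640246, plus strand), was at 64.5, 58.0 and 55.3 CPM in WT RNA and at 9.02, 10.7 and 17.5 in the WT pellet. The groups did not overlap, and the fold change was −1.09 (SE 0.27, adjusted p = 0.00892). In KO, RNA was at 51.5, 43.0 and 50.2 CPM and the pellet at 12.4, 27.8 and 12.4, again without overlap in CPM, with a fold change of −0.23 (SE 0.45, adjusted p = 0.677). Pellet replicate 2 was the high KO library.

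Cacna1b, the N-type pore (chr2:24603887-24763152, minus strand), was at 71.0, 56.1 and 41.8 CPM in WT RNA and at 25.3, 30.9 and 20.4 in the WT pellet. This corresponded to a fold change of 0.00 (SE 0.21, adjusted p = 0.991) once scaled. The KO pellet held 16.4, 47.8 and 60.8 CPM against 43.0, 34.5 and 39.7 in KO RNA, and these groups overlapped, with replicate 1 the low pellet library. The fold change of 1.25 (SE 0.46) had an adjusted p of 0.0478, and of 0.0895 to 0.125 when any library but KO pellet replicate 1 was left out (0.107 without KO pellet replicate 2).

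The L-type pore Cacna1c, the main neuronal route of calcium signals to the nucleus, was at 112, 73.0 and 58.9 CPM in WT RNA and at 8.04, 7.28 and 12.2 in the WT pellet. KO RNA held 58.3, 56.6 and 64.5 CPM and the KO pellet 14.0, 9.49 and 11.9. Pellet and RNA were far apart in both genotypes, and the fold changes were −1.98 (SE 0.33, adjusted p = 0.00121) in WT and −1.23 (SE 0.11, adjusted p = 6.91e-05) in KO.

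Reads of the Cacna1d locus ran the other way. WT RNA held 37.2, 28.1 and 20.7 CPM and the WT pellet 49.5, 16.6 and 53.1, which overlapped, and the fold change was 1.66 (SE 0.47, adjusted p = 0.0158; 0.0545 and 0.0527 without WT RNA replicate 2 or 3). KO RNA held 23.0, 20.8 and 23.4 CPM and the KO pellet 186, 302 and 219, a fold change of 4.59 (SE 0.36, adjusted p = 4.49e-05). All KO pellet libraries were above every RNA library, and Dcp1a, whose reads overlap it, had a fold change of 4.16 (SE 0.39, adjusted p = 0.000104) in the same comparison.

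Cacna1e, the R-type pore (chr1:154390731-154884501, minus strand), was at 69.5, 53.1 and 45.8 CPM in WT RNA and 18.4, 17.2 and 33.0 in the WT pellet, with a fold change of −0.12 (SE 0.32, adjusted p = 0.752). In KO it was at 39.1, 41.0 and 44.3 CPM in RNA and 27.6, 396 and 27.5 in the pellet. A single library, KO pellet replicate 2, was above RNA. The KO fold change of 3.27 (SE 1.22, adjusted p = 0.0485) became 0.34 (SE 0.10, adjusted p = 0.0205) without it. Leaving out 1 of the KO RNA libraries instead gave adjusted p values of 0.116 to 0.123.

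Both T-type pores, which open near the resting potential and shape rhythmic firing, were low in the pellet. Cacna1g (chr11:94408391-94474198, minus strand) was at 33.9, 36.1 and 30.3 CPM in WT RNA against 4.56, 5.23 and 7.47 in the WT pellet, and at 29.3, 15.8 and 27.3 CPM in KO RNA against 6.68, 3.67 and 6.49 in the KO pellet. Its fold changes were −1.39 (SE 0.23, adjusted p = 0.00111) and −1.02 (SE 0.24, adjusted p = 0.00805). Cacna1h was at 27.9, 27.5 and 25.4 CPM in WT RNA and 5.55, 7.44 and 8.05 in the WT pellet, and KO RNA at 24.6, 13.3 and 25.0 CPM stood beside 7.0, 4.55 and 7.37 in the KO pellet. Pellet and RNA were apart for both genes in both genotypes. The fold changes of Cacna1h were −0.80 (SE 0.17, adjusted p = 0.00479) and −0.64 (SE 0.24, adjusted p = 0.0489), and the latter missed the threshold, at 0.0823 to 0.163, without any 1 of the KO libraries other than RNA replicate 2.

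Of the alpha2-delta subunits, which bind gabapentin, Cacna2d2 (chr9:107399612-107529343, plus strand) was higher in both pellets on the scaled values. WT RNA held 17.3, 18.1 and 19.1 CPM and the WT pellet 11.2, 12.5 and 27.3, while KO RNA held 19.0, 14.4 and 17.6 and the KO pellet 19.1, 11.4 and 29.3. The CPM of pellet and RNA overlapped, and the direction in WT turned to −0.10 with library size alone in place of the scaled 1.08 (SE 0.36, adjusted p = 0.0301). Without 1 of the WT RNA libraries the adjusted p was 0.0676 to 0.0843. The KO value was 1.29 (SE 0.21, adjusted p = 0.0015). Cacna2d1 (chr5:15934691-16374511, plus strand) was at 31.3 to 43.4 CPM in WT RNA and 13.8 to 33.5 in the WT pellet, and its fold changes of 0.36 (SE 0.36) and 0.22 (SE 0.13) in WT and KO had adjusted p values of 0.408 and 0.166.

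Cacnb4 (chr2:52428320-52676831, minus strand), the beta subunit mutated in lethargic mice, was at 81.5, 84.9 and 95.1 CPM in WT RNA and 14.0, 19.0 and 14.3 in the WT pellet. In KO it was at 74.4, 108 and 71.1 CPM in RNA and 11.5, 10.8 and 15.4 in the pellet. No pellet library came near an RNA library, and the fold changes were −1.32 (SE 0.12, adjusted p = 5.16e-05) and −1.65 (SE 0.22, adjusted p = 0.000492). In the low nuclease preparation the KO value turned positive when RNA replicate 1 alone was kept. The KO pellet there held 23.95, 56.46 and 36.62 CPM and that RNA library 39.76 CPM.

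**Figure D3:**
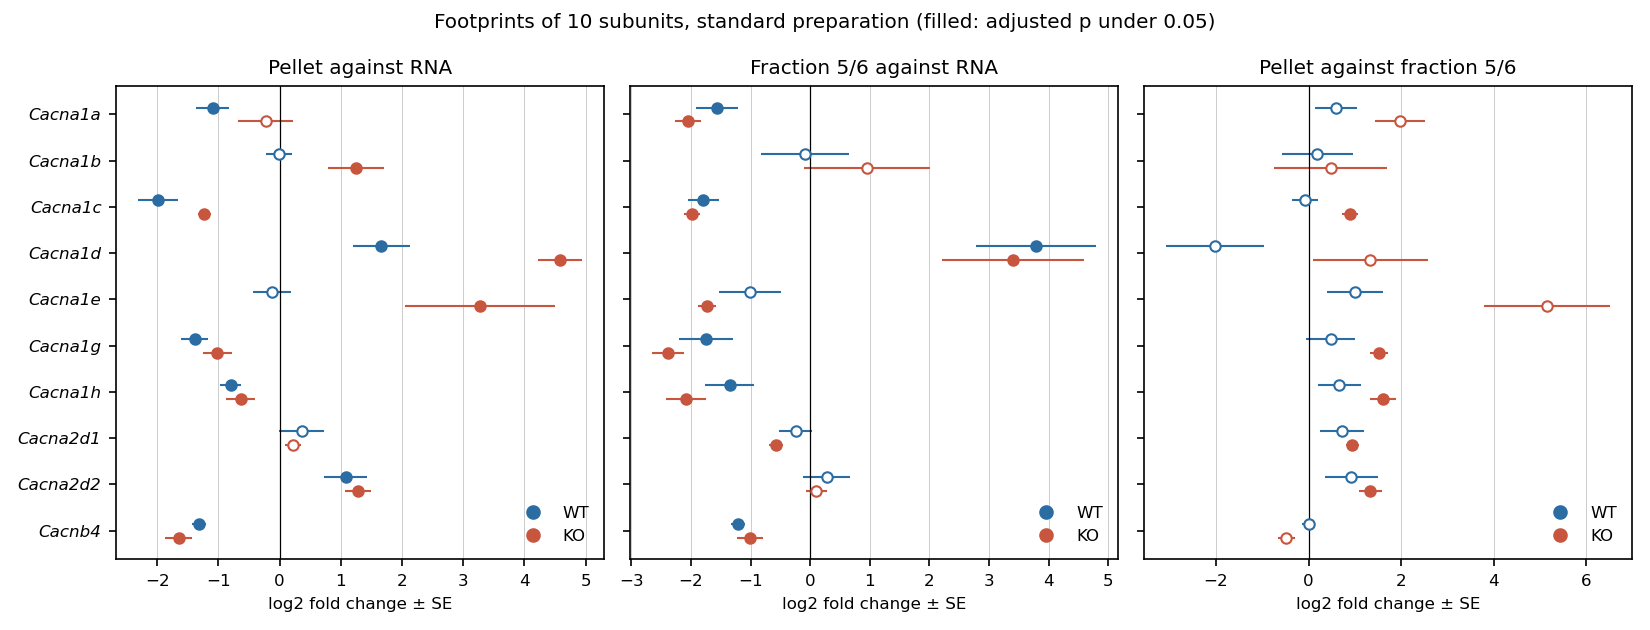
Log2 fold changes (TMM-scaled) of the 10 members for pellet against RNA, fraction 5/6 against RNA and pellet against fraction 5/6 in the standard preparation, with bars of 1 SE on either side and filled points past an adjusted p of 0.05. Against RNA, Cacna1d is above 0 in both genotypes and both kinds of RPF library, at 1.66 to 4.59, while Cacna1a, Cacna1c, Cacna1g, Cacna1h and Cacnb4 are below 0.

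Against the same RNA, fraction 5/6 held 5 of 10 members at lower levels in WT (Cacna1c, Cacna1g, Cacna1a, Cacna1h and Cacnb4) and 1 at a higher level (Cacna1d), beside 27.6% lower and 28.3% higher over all genes. In KO 7 were lower (Cacna1g, Cacna1h, Cacna1a, Cacna1c, Cacna1e, Cacnb4 and Cacna2d1) and again 1 higher (Cacna1d), beside 33.1% and 29.7%. The members' medians were −1.11 in WT and −1.37 in KO, beside 0.01 and −0.10 for all genes. The RNA libraries are those of the pellet comparison, so the 2 sets of values are not independent. Here 50.6% of all calls were higher in WT and 47.3% in KO, and 8.8% and 12.8% with library size alone.

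Cacna1g was at 2.65, 1.93 and 8.30 CPM in WT fraction 5/6, the last in the library labelled WT replicate 3, and at 1.96, 2.12 and 3.50 CPM in KO. Its fold changes were −1.75 (SE 0.45, adjusted p = 0.0151) and −2.39 (SE 0.27, adjusted p = 0.000174). Cacna1h was at 2.71, 2.50 and 8.38 CPM in WT and 1.34, 3.18 and 3.27 in KO, with fold changes of −1.35 (SE 0.41, adjusted p = 0.029) and −2.08 (SE 0.34, adjusted p = 0.00111). All of these values lay below every RNA library of the same genotype. Without replicate 3 of the libraries labelled WT, the WT fold changes were −2.61 (SE 0.18, adjusted p = 0.000109) for Cacna1g and −2.12 (SE 0.19, adjusted p = 0.000232) for Cacna1h. With it, Cacna1h had an adjusted p in WT of 0.0619 to 0.0831 without 1 of the RNA libraries, and Cacna1g of 0.0523 without WT RNA replicate 2.

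Cacna1a was at 9.03, 3.29 and 14.0 CPM in WT fraction 5/6 and 3.51, 7.43 and 7.70 in KO, with fold changes of −1.57 (SE 0.35, adjusted p = 0.00833) and −2.05 (SE 0.21, adjusted p = 0.000122). Cacna1c, at 11.6, 6.81 and 11.7 CPM in WT and 6.19, 6.37 and 13.1 in KO, differed from RNA by −1.79 (SE 0.27, adjusted p = 0.00153) and −1.98 (SE 0.14, adjusted p = 2.38e-05). Cacnb4, at 19.5, 12 and 16 CPM in WT and 21.6, 19.7 and 25.0 in KO, differed by −1.21 (SE 0.12, adjusted p = 0.000301) and −1.01 (SE 0.22, adjusted p = 0.00456). For these 3 genes, too, fraction 5/6 and RNA were apart in CPM. Without the doubted WT library the WT values were −2.03 (adjusted p = 0.00097) for Cacna1a, −1.90 (adjusted p = 0.00262) for Cacna1c and −1.21 (adjusted p = 0.000395) for Cacnb4.

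Libraries of fraction 5/6 disagreed most for Cacna1b and Cacna1d. Cacna1b was at 19.7, 2.61 and 50.4 CPM in WT and 89.5, 4.02 and 6.54 in KO, so 1 KO library exceeded all KO RNA libraries and the others lay below them. The KO fold change of 0.95 (SE 1.06, adjusted p = 0.46) became −2.17 (SE 0.16, adjusted p = 9.63e-05) without KO fraction 5/6 replicate 1. The Cacna1d locus was at 26.4, 299.8 and 89.9 CPM in WT and 30.0, 302 and 7.0 in KO, with fold changes of 3.79 (SE 1.01, adjusted p = 0.0172) and 3.40 (SE 1.20, adjusted p = 0.0386). Replicate 2 was the highest in both genotypes, and without it the WT value was 1.99 (adjusted p = 0.0148) and the KO value 0.86 (SE 0.60, adjusted p = 0.262). Without 1 of the RNA libraries the adjusted p was 0.0516 to 0.064 in WT and 0.0949 to 0.103 in KO. Its reads there were 3986 for Cacna1d, 1919 for Chdh and 2177 for Dcp1a.

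Cacna1e was at 7.22, 4.77 and 24.6 CPM in WT fraction 5/6 and 6.19, 5.00 and 9.34 in KO, and differed from RNA by −1.01 (SE 0.52, adjusted p = 0.138) and −1.73 (SE 0.15, adjusted p = 4.96e-05). Cacna2d1 was at 11.7, 7.83 and 20.7 CPM in WT and 9.80, 11.8 and 15.9 in KO, and differed by −0.24 (SE 0.28, adjusted p = 0.49) and −0.57 (SE 0.12, adjusted p = 0.0041). With replicate 3 of the libraries labelled WT left out, Cacna1e (−1.97, adjusted p = 0.000615) and Cacna2d1 (−0.66, adjusted p = 0.0162) were lower in WT as well, which made 8 WT members past the threshold and moved the WT median over the members from −1.11 to −1.56. In the same fit 9863 of 16456 genes passed, against 9063 of 16213 with the library kept, and the median over all genes moved from 0.01 to −0.13. The Cacna1d locus was then at 4.01 (SE 1.00, adjusted p = 0.0135). Cacna2d2, at 3.86 to 17.4 CPM in WT and 6.29 to 14.9 in KO, was at 0.27 (SE 0.40, adjusted p = 0.585) and 0.10 (SE 0.17, adjusted p = 0.623). Its WT value turned negative without replicate 3 of the libraries labelled WT, with 9 members below 0 in place of 8.

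Enrichment in the pellet over fraction 5/6 sets the compacted clusters against the lighter ones, with RPFs on both sides. The paper detected ribophorin, a marker of the rough endoplasmic reticulum, in the pellet and not in fraction 5/6. It also leaves unclear whether the pellet holds only ribosomes of RNA granules. The part of either in the values below was not tested. In KO 5 of 10 members were higher in the pellet and 0 lower: Cacna1h, Cacna1g, Cacna2d2, Cacna2d1 and Cacna1c. Over all genes 10.1% were higher and 1.40% lower. The members' median was 1.33, beside 0.01 for all genes. With library size alone in place of TMM, the median over all genes moved to −0.33, 141 genes were higher and 22 lower in place of 1342 and 186, none of these 5 members passed (adjusted p 0.195 to 0.449), and Cacna1e alone did. In WT 0 members passed edgeR's test, beside 0.0229% of all genes, of which 819 had an unadjusted p under 0.05, and DESeq2, which called 0.696% of all genes, also called 0 members. Of the WT members 8 of 10 had positive values, with a median of 0.53 beside 0.00 for all genes. Without replicate 3 of the libraries labelled WT, the WT median was 1.2, with 3 members below 0.

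Both T-type pores were higher in the KO pellet than in KO fraction 5/6. The KO pellet of Cacna1g, at 3.67 to 6.68 CPM, lay above fraction 5/6 at 1.96 to 3.50 CPM, with a fold change of 1.52 (SE 0.20, adjusted p = 0.00543). For Cacna1h the pellet at 4.55 to 7.37 CPM lay above fraction 5/6 at 1.34 to 3.27 CPM, with a fold change of 1.61 (SE 0.29, adjusted p = 0.0166). Both genes have few reads in these libraries, and the adjusted p of Cacna1h was 0.0625 to 0.0782 without KO pellet replicate 1 or 3 or KO fraction 5/6 replicate 3. Their WT fold changes were 0.48 (SE 0.53) and 0.66 (SE 0.47).

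The alpha2-delta subunits were at 11.4 to 29.3 CPM (Cacna2d2) and 12.3 to 23.2 CPM (Cacna2d1) in the KO pellet and at 6.29 to 14.9 and 9.80 to 15.9 CPM in KO fraction 5/6, and these ranges overlapped. Fold changes were 1.33 (SE 0.25, adjusted p = 0.0195) and 0.94 (SE 0.14, adjusted p = 0.00902). Cacna1c, at 9.49 to 14.0 CPM in the pellet and 6.19 to 13.1 in fraction 5/6, had 0.89 (SE 0.18, adjusted p = 0.0254). The count of Dcp1b, which overlaps it, was 45.4 to 63.8% of the Cacna1c count in the KO pellet and 70.0 to 107.1% in KO fraction 5/6, and its part in this value was not tested. The calls of Cacna2d2, Cacna2d1 and Cacna1c moved with single KO libraries: the adjusted p of Cacna2d2 was 0.0522 to 0.0779 without pellet replicate 1 or any 1 of the fraction 5/6 libraries, that of Cacna2d1 0.054 and 0.0657 without fraction 5/6 replicate 3 or pellet replicate 1, and that of Cacna1c 0.0551 to 0.124 without any 1 library but fraction 5/6 replicate 3. The KO pellet and fraction 5/6 of Cacna1a did not overlap (12.4 to 27.8 against 3.51 to 7.70 CPM), and its 1.98 (SE 0.54) missed the threshold at an adjusted p of 0.0628.

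Cacna1e, at 5.14 (SE 1.36, adjusted p = 0.0576) with 396 CPM in KO pellet replicate 2, was at 2.2 (SE 0.17, adjusted p = 0.00155) without that library. Cacnb4 was the only KO member with a negative value, −0.48 (SE 0.18, adjusted p = 0.128), and in WT it was at 0.00 (SE 0.14). The KO count of 5 was 1 without KO pellet replicate 1, 3 without KO pellet replicate 3, 3 without either KO fraction 5/6 replicate 1 or 2, and 2 without KO fraction 5/6 replicate 3. Calls over all genes, 1528 of 13326 with every library, were 545, 709, 616, 1362 and 660 in these fits, with KO fraction 5/6 replicates 1 and 2 in that order. With replicate 3 of the fraction 5/6 libraries labelled WT left out, the WT count was still 0 while 1258 of 13350 genes passed, with Cacna1e (1.91, adjusted p = 0.0538) and Cacna1h (1.37, adjusted p = 0.0582) closest and Cacna1g at 1.29 (adjusted p = 0.0912). The difference between KO and WT in this enrichment was tested itself, and 0 members passed, with adjusted p values from 0.822 upward (from 0.812 without that WT library), beside 0% of all genes (766 genes with an unadjusted p under 0.05). DESeq2 called 0 members and 0.305% of genes.

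The genotypes were then compared directly within each kind of library. In RNA 0 members differed by edgeR, beside 0.0736% of all genes, 423 genes having an unadjusted p under 0.05, and DESeq2 called 0, beside 0.147% of genes. All 10 fold changes were below 0, from −0.50 for Cacna1b (SE 0.18) to −0.01 for Cacnb4 (SE 0.17), with a median of −0.34 beside 0.00 for all genes. For Cacna1a the WT libraries (55.3 to 64.5 CPM) and KO libraries (43.0 to 51.5 CPM) did not overlap, with a fold change of −0.27 (SE 0.10, unadjusted p = 0.0283, adjusted p = 0.999). Nor did those of Cacna1e (45.8 to 69.5 against 39.1 to 44.3 CPM), Cacna1g (30.3 to 36.1 against 15.8 to 29.3 CPM) and Cacna1h (25.4 to 27.9 against 13.3 to 25.0 CPM), at −0.41, −0.45 and −0.34, all with an adjusted p of 0.999. These 4 of 10 members stand beside 5.76% of all genes tested (940 of 16313) with every KO RNA library below every WT one. Summed oligodendrocyte markers ran from 241 to 534 CPM in WT RNA and from 236 to 350 in KO RNA. Summed astrocyte markers ran from 434 to 657 and from 404 to 478 CPM, and the part of both in these values was not tested.

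In the pellet 0 members differed between genotypes by edgeR, beside 0.0152% of all genes and 704 genes with an unadjusted p under 0.05, while DESeq2 called 1, beside 0.509% of genes. That member was the Cacna1d locus. Its KO pellet libraries (186 to 302 CPM) were all above the WT ones (16.6 to 53.1 CPM), with a fold change of 2.65 (SE 0.58, unadjusted p = 0.00347, adjusted p = 0.862) by edgeR and an adjusted p of 0.0141 by DESeq2. The direction turned in the low nuclease pellet, where the locus was at 12.29 to 28.39 CPM in KO and 23.86 to 70.23 in WT. Dcp1a was at 9.92, 10.9 and 8.05 CPM in the WT pellet and 159, 301 and 225 CPM in the KO pellet, a fold change of 4.70 (SE 0.42, adjusted p = 0.0783). Cacna1e had 3.04 (SE 1.30, adjusted p = 0.862), and 0.12 (SE 0.36) without KO pellet replicate 2. It turned as well in the low nuclease pellet, at 29.78 to 81.68 CPM in KO and 83.78 to 116.45 in WT. The other members lay between −0.28 (Cacnb4, SE 0.15) and 0.80 (Cacna1b, SE 0.49).

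In fraction 5/6 the test called 0 members and 0% of all genes (599 genes had an unadjusted p under 0.05, and DESeq2 called 0 members and 0.668% of genes), and the members' median was −0.64, beside −0.01 for all genes. The KO-minus-WT values ran from −1.09 for Cacna1e (SE 0.54) to 0.55 for Cacna1b (SE 1.38). Here the library labelled WT replicate 3 held the highest level of Cacna1a, Cacna1e, Cacna1g, Cacna1h, Cacna2d1 and Cacna2d2 among all 6 libraries. Without it the members' median was −0.24, 0 members passed, and Cacna1e was at −0.21 (SE 0.22, adjusted p = 0.916), Cacna1g at −0.27 (SE 0.24, adjusted p = 0.897) and Cacna1h at −0.39 (SE 0.40, adjusted p = 0.913).

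**Figure D4:**
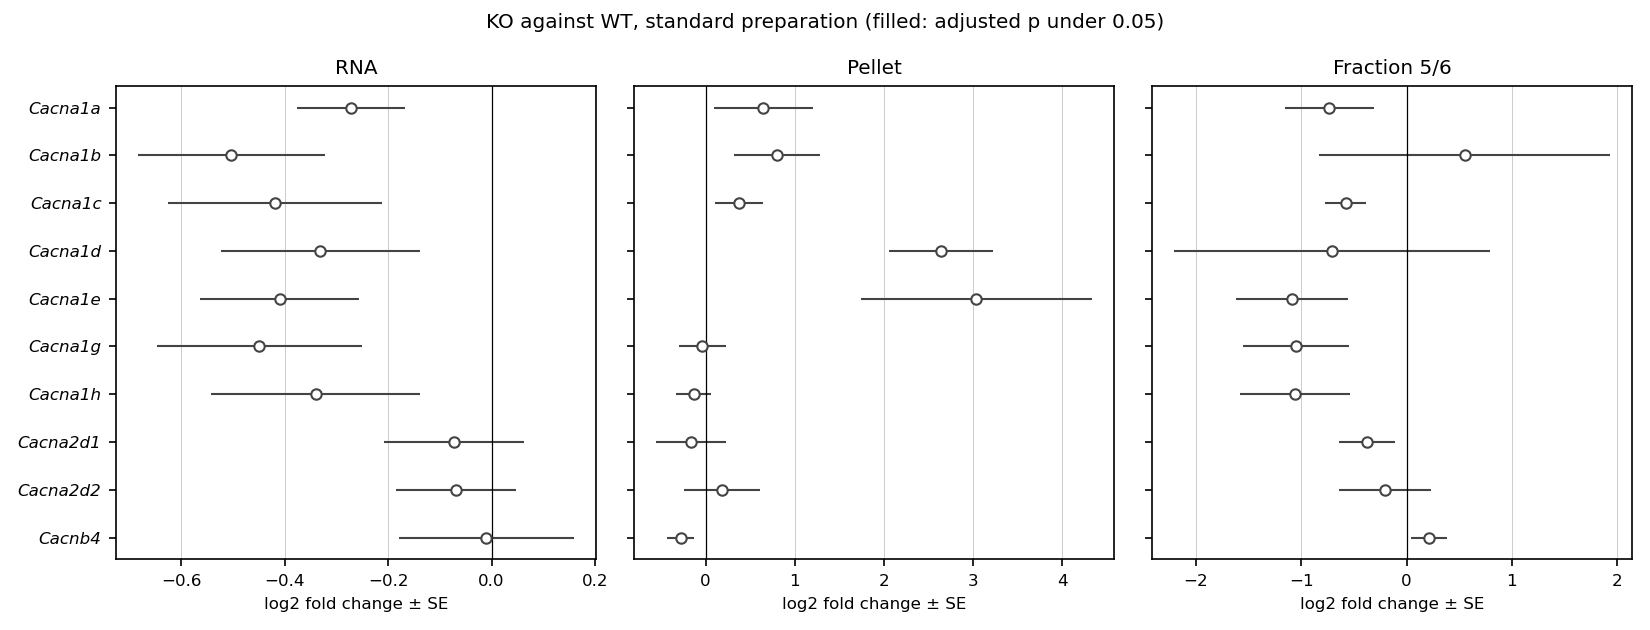
Log2 fold changes (TMM-scaled) of FMR1 KO against WT for the 10 members in RNA, pellet and fraction 5/6 of the standard preparation, with bars of 1 SE on either side; each panel has its own axis range and no point is filled, as none passed an adjusted p of 0.05. In RNA all 10 members lie between −0.50 and −0.01, and Cacna1d and Cacna1e have the highest values in the pellet, 2.65 and 3.04.

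The change in pellet occupancy with genotype was tested as an interaction, and 0 members passed by edgeR, beside 0.0670% of all genes and 1005 genes with an unadjusted p under 0.05. For the Cacna1d locus it was 2.96 (SE 0.64, unadjusted p = 0.000693, adjusted p = 0.447), and DESeq2, which called 1 member and 0.390% of all genes, gave 2.93 with an adjusted p of 0.00033. Dcp1a, which shares reads with it, was at 4.53 (SE 0.42, adjusted p = 0.00103) by edgeR. Cacna1e (3.43, SE 1.33, adjusted p = 0.758) and Cacna1b (1.29, SE 0.56, adjusted p = 0.8) followed, and the members' median was 0.60, beside −0.01 for all genes.

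The low nuclease preparation gave a separate set of libraries, digested more gently. Its RPF libraries held 23634940 to 62310787 reads with 2.69 to 5.62% on Cdk8. Of its 6 RNA libraries 3 (WT replicate 2, KO replicates 2 and 3) had over 50% of reads on 10 genes, reaching 85.0%, and the comparisons with RNA are given without them, which was chosen after seeing the data. WT pellet enrichment over fraction 5/6 was positive and past the threshold for 7 of 10 members, beside 14.3% of genes higher: Cacna2d2 (2.74, SE 0.64, adjusted p = 0.0315), Cacna1e (1.81, SE 0.34, adjusted p = 0.0188), Cacna1b (1.52), Cacna1h (1.46), Cacna2d1 (1.38), Cacna1a (1.35) and Cacna1c (1.09, SE 0.31, adjusted p = 0.0495). Cacna1g had 1.10 (SE 0.37, adjusted p = 0.0776). This count rested on all 6 libraries: leaving out each in turn, a check added after seeing the data, gave 0 without WT pellet replicate 3, 2 without WT pellet replicate 1 or 2 or WT fraction 5/6 replicate 2, 3 without WT fraction 5/6 replicate 1 and 5 without WT fraction 5/6 replicate 3. Calls over all genes in either direction, 3569 with every library, were 992 to 2549 in these fits, lowest without WT pellet replicate 3.

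For Cacna1e the WT pellet held 83.8, 85.9 and 116 CPM and fraction 5/6 held 16.4, 28.9 and 44.6, without overlap. Cacna2d2 was at 48.5, 219 and 66.8 CPM in that pellet, replicate 2 being high, and 14.9, 23.6 and 17.1 in fraction 5/6, again without overlap. Without pellet replicate 2 its fold change was 1.73 (SE 0.26, adjusted p = 0.0335), and its adjusted p was 0.0587 to 0.092 without pellet replicate 3 or any 1 of the fraction 5/6 libraries. Cacnb4, at 36.6, 28.0 and 41.6 CPM against 39.0, 37.1 and 49.6, overlapped and was at −0.13 (SE 0.16, adjusted p = 0.567).

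In KO 1 of 10 members passed in the low nuclease preparation, beside 9.31% of genes higher: Cacna2d2, at 45.8, 49.7 and 37.6 CPM in the pellet and 13.0, 22.8 and 25.6 in fraction 5/6, with a fold change of 1.31 (SE 0.25, adjusted p = 0.0238). Its adjusted p was 0.0575 to 0.0777 without pellet replicate 1 or 2 or fraction 5/6 replicate 2 or 3. The test of the difference between genotypes called 0 of 10 by edgeR (DESeq2 was not run there), beside 0.0189% of all genes and 1347 genes with an unadjusted p under 0.05, with the lowest adjusted p at 0.62 (Cacna2d2, −1.41, SE 0.73). So the genotype with more called members differed between preparations, and within neither preparation did the difference between genotypes pass. In the low nuclease RNA libraries kept, the 10 members summed to 1340.3 and 2534.2 CPM in WT and 1680.9 CPM in KO. Standard RNA held 428.6 to 558.2 CPM in WT and 384.0 to 397.0 in KO. The part of this difference in the comparisons with RNA was not tested. With the 3 RNA libraries left out, occupancy in the WT pellet was lower for 6 of 10 members, beside 29.8% of all genes, from −2.47 for Cacna1g and −2.12 for Cacna1h to −1.24 for Cacna1e. In KO, where 1 RNA library remained and was assumed to vary like the other groups, 5 were lower, beside 19.1%, led by Cacna1g (−2.87) and Cacna1h (−2.67). Of the 4 members higher in the standard KO pellet, Cacna1b (−2.13, adjusted p = 0.0241), Cacna1e (−2.0, adjusted p = 0.0467) and Cacna2d2 (−0.83, adjusted p = 0.0423) were lower here. The Cacna1d locus, higher in both standard pellets, was at −0.42 in WT and −1.10 in KO and did not pass.

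Related lists of genes were read beside the members, as counts with no test of the list. Their counts stand beside 31.1% of all genes higher and 34.2% lower in the WT pellet than in RNA, 31.8% and 35.2% in KO, and 10.1% higher in the KO pellet than in fraction 5/6. Of 16 other subunits of voltage-gated calcium channels, 9 were lower in the pellet than in RNA in each genotype, among them the gamma-family members Cacng7 (−4.45 in WT), Cacng4 (−3.87) and Cacng2 (−2.65), the last known for its role in AMPA receptor trafficking, and Cacnb3 (−2.43). Cacnb2 was higher in both (1.14 in WT and 1.51 in KO). Cacna1s, the pore of skeletal muscle, was higher in KO (2.03), while summed markers of skeletal muscle reached 125 CPM in 1 KO pellet library and 315 CPM in 1 WT pellet library, beside 10.1 to 12.8 CPM in RNA. Of 12 subunits tested for pellet enrichment over fraction 5/6 in KO, Cacna2d3 passed (0.90).

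Proteins that bind the channels were mixed: 4 of 16 were higher and 4 lower in the WT pellet than in RNA, and 3 and 4 in KO. Stac2, an adaptor of L-type channels, was at −2.19 in WT and −2.25 in KO, and Calm3, a calmodulin gene, at −1.34 and −1.46. Snap25, a SNARE protein bound by presynaptic channels, was at 0.75 and 0.54, and Rem2, a small GTPase that inhibits channels, at 0.81 in both.

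Voltage-gated sodium channels, whose pores are related to those of calcium channels, had 0 of 9 higher and 6 lower in the WT pellet and 0 and 7 in KO, with Scn8a at −1.25 and −1.41. Calcium release channels of the endoplasmic reticulum had 3 of 6 higher in WT and 5 in KO and 0 lower. Itpr1, the neuronal IP3 receptor, was at 1.48 and 1.31, and Ryr2, a ryanodine receptor, at 0.91 and 0.83. In KO, 4 of the 6 were also higher in the pellet than in fraction 5/6 (Ryr3 2.18, Ryr2 1.79, Itpr1 1.43 and Ryr1 0.92), as were 2 of 8 sodium channels (Scn8a 1.30 and Scn2a 0.95).

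Across the 18 standard libraries the members' log2 CPM were averaged and each gene was correlated with this mean, as a description over libraries that share type and depth. Cacna1a (Pearson r = 0.968), Cacna1g (0.944), Cacna1h (0.939), Cacna2d1 (0.896) and Cacna1c (0.887) followed it most closely, each being 1 of the 10 genes in the mean. Cacna1e (0.785), Cacnb4 (0.727), Cacna2d2 (0.693) and Cacna1b (0.641) came next, and the Cacna1d locus was at −0.208. Of 12139 genes compared, those most like the mean outside the members were Hcn4 (0.960), which encodes a pacemaker channel, Prune2 (0.954), Sec63 (0.954), a component of the endoplasmic reticulum translocon, Thsd7b (0.953) and Nup210 (0.952), a nuclear pore membrane protein.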

How the data were processed

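RPF libraries of pellet and fraction 5/6 and RNA libraries were made from pooled brains in 12 groups of 3. Per the labels and the submitters' processing notes, reads were handled with cutadapt 2.10, Bowtie2 2.3.5, STAR 2.7.8a, Picard, SAMtools 1.19.2 and featureCounts 2.2.0 on GRCm38. The authors deposited a table of raw counts per gene, not normalized, and peak intervals on transcripts with a height (an RPF signal per interval, read as 0-based). The features and strand counted are not given in the sources used here, and the check of gene pairs given in the report was made instead.

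From these, counts of 16568 protein-coding genes without Cdk8 were filtered by filterByExpr, scaled by TMM and tested with edgeR 4.0.16 (quasi-likelihood, Benjamini-Hochberg adjustment over all genes tested, threshold 0.05), using only the groups compared. Interactions used the 4 groups involved. DESeq2 1.42.0 was the alternative tool, run in R 4.3.3, and Python 3.11.15 with pandas 2.3.3 made the summaries. The script was tested on simulated data. Other alternatives were other size factors, Cdk8 kept, no filter, all biotypes, the replicate number as a block, all groups in 1 fit, the low nuclease preparation and leaving out libraries. All 10 members are named, the other genes come from lists, and overlapping genes are named from the annotation. Members and lists were chosen with earlier results of these data known. No 2 libraries of the same group agreed within counting noise, so none was taken as a duplicate within its group (lowest chi-square per degree of freedom 29.1). Pairs of libraries from different groups were not compared in this way. Adjusted p values rest on the spread between pooled preparations of each group. Per the paper's methods, RPF replicates of a condition were tagged with different linkers and combined before reverse transcription and PCR. Differences between these combined pools cannot be told apart from differences between groups of RPF libraries. Protein sequences were not used here.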

Additional observations from a re-analysis of the deposited data

How the results depend on the processing

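Across all settings, 230 values of the counts of called members, the peak count and the summed levels stayed close to the value reported (counts within 1.5 times, levels within 1 SD) and 37 moved. With all 6 standard groups in 1 fit, the WT pellet against RNA had 4 members. With library size alone, KO pellet against fraction 5/6 had 1, and Cacna2d2 in the WT pellet against RNA turned to −0.10. DESeq2 called 1 member, the Cacna1d locus, for KO against WT in the pellet and 1 for the genotype interaction of pellet against RNA. In the low nuclease preparation, pellet against fraction 5/6 had 7 in WT and 1 in KO. With its dominated RNA libraries left out, KO pellet against RNA had 5.

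Directions that turned in the low nuclease preparation are given as all libraries and then, where it turned there, with the dominated RNA libraries left out. For pellet against RNA these were Cacna1d in WT (−0.45, −0.42) and in KO Cacna1e (−1.97, −2.0), Cacna1b (−1.71, −2.13), Cacna2d2 (−0.56, −0.83) and Cacna1d (−1.65, −1.10). Cacnb4 turned in KO with those libraries left out, to 0.41 in the pellet and 0.25 in fraction 5/6, and was at 0.064 in WT fraction 5/6 with all libraries. Cacna1d in KO fraction 5/6 was at −0.39. For KO against WT in the pellet, Cacna1e was at −0.70 and Cacna1d at −0.91, and the interaction of Cacna1d was −1.18 (−0.65). The cause was not tested.

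Leaving out 1 library or 1 replicate number gave 4 to 7 members for WT pellet against RNA, 4 to 9 for KO pellet against RNA (5 without KO RNA replicate 1 or 3), 3 to 8 for WT fraction 5/6 against RNA (3 without WT RNA replicate 2), 7 to 9 for KO fraction 5/6 against RNA, 0 to 1 for WT pellet against fraction 5/6 (Cacna1e, without replicate 3), 0 to 6 for KO pellet against fraction 5/6, and 0 to 0 for the others. Within the low nuclease preparation, pellet against fraction 5/6 gave 0 to 5 in WT and 0 to 1 in KO, and the genotype interaction 0 to 0. Cacna1e in KO against WT pellet ran from −0.11 (without replicate 2) to 4.00.

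The members' summed CPM on TMM effective library sizes was 280.3 in WT RNA, 232.1 in KO RNA, 359.7 in WT fraction 5/6 and 244.6 in the WT pellet. With Cdk8 kept it was 113.7 in WT fraction 5/6, 96.0 in the WT pellet and 220.7 in the KO pellet.

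Deviations of same-numbered replicates were weakly correlated between compared groups (−0.13 to 0.18), and the main tests used no replicate block. Different-numbered replicates were not correlated for comparison, so these values cannot decide whether the samples are paired. With the replicate block, 7, 6, 5, 7, 0 and 5 members were called for pellet against RNA (WT, KO), fraction 5/6 against RNA (WT, KO) and pellet against fraction 5/6 (WT, KO), and 0 in the genotype comparisons. Of single members, 582 values kept direction and side of the threshold, 146 no longer passed, 2 newly passed and 20 turned. Member counts as low as 13 reads limit the comparisons of fraction 5/6, 3 preparations per group limit every comparison, and reads shared with overlapping genes limit Cacna1d and Cacna1c.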
